A study of Homo sapiens with 3 samples.

Results

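The genes described here are 10 members of the AP-1 and immediate early group: FOS, FOSB, FOSL1, FOSL2, JUN, JUNB, JUND, EGR1, IER2 and MAFF. They were taken by gene symbol from a table of 27574 genes, in which all 10 were present. The data are RNA sequencing read counts of 3 libraries of H82R cells, called here replicate 1, 2 and 3. The established line H82 derives from a human small cell lung cancer and was grown in RPMI medium with serum. Every library carries the same treatment label, etoposide with cisplatin, worded as the treatment of a tumor although the material is a cultured line. Etoposide leaves topoisomerase II trapped on cleaved DNA, and cisplatin crosslinks DNA. The dose, the duration and the time from drug to harvest were not given in the sources used here. The labels form 1 group with no untreated or parental sample, so the values below are levels and their spread, and no effect of the drugs can be read from them. The labels do not say whether separate cultures were used, so p-values here reflect the spread among these libraries alone and that spread may be technical.

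AP-1 is a transcription factor made of pairs of basic leucine zipper (bZIP) proteins. JUN proteins pair with themselves, with FOS proteins or with some ATF proteins, whereas FOS proteins need a partner such as JUN to bind DNA. Most genes of the group are immediate early genes: growth factors, depolarisation or stress switch them on within minutes, through kinases that act on transcription factors already present, and their short-lived RNAs then disappear again. EGR1 is a zinc finger factor of the same early response, IER2 a small nuclear protein, and MAFF a small MAF protein that lacks an activation domain.

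Promoter sequences of 4 members are shown. JUND and JUN had the highest mean levels per kb. FOS and EGR1, the textbook immediate early genes, had at most 81 and 30 counts in a library, although FOSB and FOSL2 had lower mean levels per kb. Each window runs 5′ to 3′ from 250 bases before to 50 after the RefSeq start on GRCh38.p14. It covers chr19:18281573-18281872 (minus strand) for JUND, chr1:58783998-58784297 (minus strand) for JUN, chr14:75278578-75278877 (plus strand) for FOS and chr5:138465229-138465528 (plus strand) for EGR1. Capitals mark matches to the CArG box, to which serum response factor binds, the CRE (TGACGTCA), the TRE (TGANTCA), the CCAAT box (CCAAT) and the TATA box (TATAAA), each searched on both strands.
JUND: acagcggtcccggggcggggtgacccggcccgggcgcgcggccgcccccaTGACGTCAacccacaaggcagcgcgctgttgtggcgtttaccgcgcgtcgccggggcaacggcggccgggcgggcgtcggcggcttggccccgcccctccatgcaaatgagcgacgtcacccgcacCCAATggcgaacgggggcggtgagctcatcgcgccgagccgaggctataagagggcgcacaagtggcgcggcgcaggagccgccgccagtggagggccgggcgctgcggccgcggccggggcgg
JUN: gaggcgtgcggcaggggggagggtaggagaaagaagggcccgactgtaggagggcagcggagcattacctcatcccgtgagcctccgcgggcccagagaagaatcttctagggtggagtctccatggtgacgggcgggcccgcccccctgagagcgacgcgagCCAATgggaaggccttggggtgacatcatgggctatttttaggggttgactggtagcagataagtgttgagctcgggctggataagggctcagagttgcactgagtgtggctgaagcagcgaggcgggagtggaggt
FOS: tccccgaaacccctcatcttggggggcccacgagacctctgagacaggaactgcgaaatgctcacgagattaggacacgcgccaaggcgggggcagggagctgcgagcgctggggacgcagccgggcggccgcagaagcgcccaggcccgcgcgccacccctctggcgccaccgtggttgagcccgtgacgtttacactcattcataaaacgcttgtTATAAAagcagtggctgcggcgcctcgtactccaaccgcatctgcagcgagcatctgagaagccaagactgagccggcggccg
EGR1: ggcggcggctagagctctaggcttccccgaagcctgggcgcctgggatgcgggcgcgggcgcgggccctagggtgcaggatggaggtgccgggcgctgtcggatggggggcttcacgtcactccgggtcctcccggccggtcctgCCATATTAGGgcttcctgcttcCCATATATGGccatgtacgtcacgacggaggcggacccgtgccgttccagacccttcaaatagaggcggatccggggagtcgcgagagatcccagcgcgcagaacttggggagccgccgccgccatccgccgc

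Windows were found for 9 of the 10 members. EGR1 was the 1 member with a CArG box inside its window, with matches centred at -100 and -78 bases from the start. Of 35116 RefSeq promoter windows of that length, 1.29% held one. Sequence farther upstream was not searched, so a member without a match here may carry a CArG box outside its window. The CRE was found in JUND, centred at -196, and in MAFF, at -50, against 1.85% of all windows, and the TRE in FOSL2 alone (7.71% of all windows). Only exact matches to the stated letters were counted, so a near match to the CRE, such as tgacatca in the JUN window, was not. A TATA box was found in FOS, FOSB and JUNB (11.5% of all windows) and a CCAAT box in JUN, JUNB, JUND and MAFF (34.6%). The GC box GGGCGG was found in 7 of the 9 (45% of all windows), with 6 matches in JUND, and the EGR1 site (GCGTGGGCG) in none (0.795%). No match overlapped another in the members' windows. A match describes the letters of the window only, and these letters need not be bound in H82R cells.

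Replicates 1, 2 and 3 held 25013265, 42610181 and 23868201 counts. CPM, counts divided by the effective library size and scaled by a fixed factor, are used for 1 gene between libraries, and CPM per kb of exon wherever levels of different genes are set side by side. A gene was called detected with at least 10 counts in each library, which held for 14612 genes. All 8 neuroendocrine markers of small cell lung cancer were detected, with a summed level of 1411 to 1439 CPM. Per kb, 7 of the 8 were called above the median detected gene and INSM1 below it (log2 distance -0.746, limma, adjusted p = 0.000389). Of the markers of other cells, 2 of 6 fibroblast markers were detected (3.30 to 5.64 CPM summed), 2 of 6 immune (26.8 to 35.8 CPM, most of it CD68, whose exons are 81.7% shared with another annotated gene), 2 of 4 endothelial (1.09 to 1.79 CPM) and 1 of 5 airway markers (8.99 to 14.4 CPM, nearly all FOXJ1). Of these 7 detected markers of other cells, CD68 was called above the median detected gene per kb (log2 distance 0.884, limma, adjusted p = 0.000118), FOXJ1 was not distinguished from it (adjusted p = 0.088 in limma) and 5 lay below. The T cell gene CD3E had 136, 424 and 179 counts, at 5.47, 9.92 and 7.47 CPM, and was highest in replicate 2; PDGFRB, a fibroblast and pericyte gene, had 110, 146 and 65. The general leukocyte gene PTPRC (6, 10 and 7 counts) and the fibroblast gene DCN (0, 1 and 0), both named after their values were seen, were not detected. The part of other cells in the results was not tested. In bulk RNA, fewer cells that express a gene and less RNA per cell cannot be told apart.

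Mean levels of the 10 genes ran from 71.0 CPM per kb (JUND) to 0.0190 (FOSL2). JUND, JUN, IER2 and JUNB lay above the median detected gene on the per-kb scale, and MAFF, FOSL1, EGR1 and FOSB lay below it (limma's one-sample test, adjusted over 13520 detected genes with a known exon length). FOS and FOSL2 did not reach 10 counts in each library and were outside the test. Across all genes tested, 45.3% were called above and 45.1% below, so 4 of 8 in each direction is close to the background, and the split describes these genes without setting them apart from others. The median detected gene stood at 5.59 CPM per kb.

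**Figure D1:**
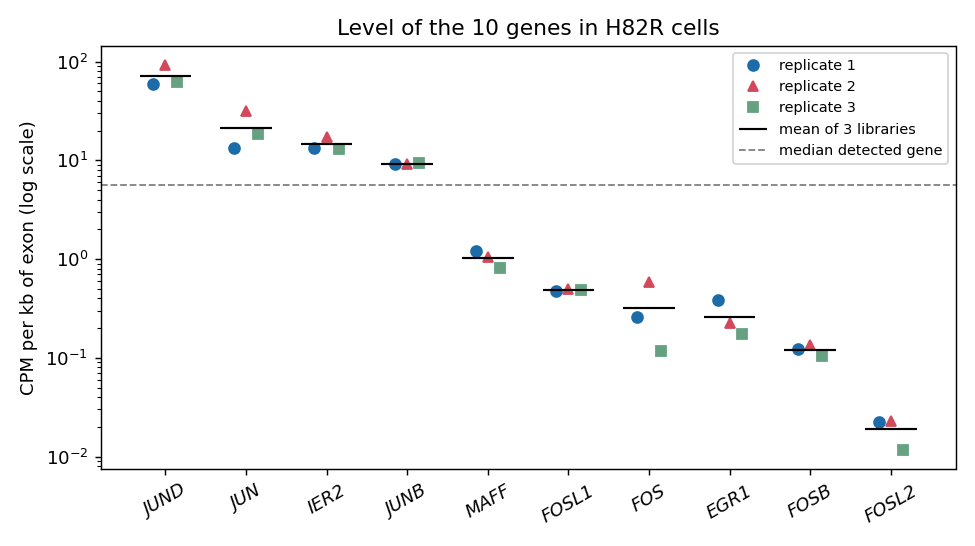
CPM per kb of exon (log scale) of the 10 genes, ordered by mean; points are the 3 libraries, short black lines their means and the dashed line the median detected gene. JUND, JUN, IER2 and JUNB sit above the dashed line in every library, and the other 6 genes sit below it in every library, from MAFF at a mean of 1.01 down to FOSL2 at 0.0190.

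JUND, the JUN protein that many resting cells make steadily, was the most abundant member. It had 2743, 7308 and 2771 counts in replicates 1, 2 and 3, which is 59.3, 91.8 and 62.1 CPM per kb (mean 71.0 ± 18.02, SD, n = 3). Replicate 2 was high and the other 2 libraries lay close together. JUND lay above the median gene by 3.65 ± 0.124 (SE) on the log2 scale (limma, adjusted p = 2.84e-08), and 97.2% of detected genes stood lower. It is a single-exon gene on chromosome 19 from 18279760 to 18281622 (GRCh38).

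JUN, the founding AP-1 gene and a target of its own product, had 1180, 4827 and 1551 counts. Its level was 13.4, 31.9 and 18.3 CPM per kb (21.2 ± 9.58, n = 3), again with replicate 2 highest. The distance from the median gene was 1.84 ± 0.202 on the log2 scale (limma, adjusted p = 3.24e-05). JUN is also a single-exon gene, on chromosome 1 from 58780788 to 58784327.

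JUNB, which can oppose JUN at some promoters and is itself quickly induced in many cells, was the steadiest member. Its counts of 412, 712 and 407 correspond to 9.11, 9.15 and 9.33 CPM per kb, so that its highest library stood 1.02 times above its lowest, the least of the 10 genes. It lay 0.733 ± 0.098 above the median gene on the log2 scale (limma, adjusted p = 0.000118), but at -0.581 when CPM was not divided by length; its exons span 1.82 kb. JUNB lies on chromosome 19 from 12791496 to 12793315, and 14.2% of its exon bases are shared with HOOK2 on the other strand; whether the counting used strand was not given in the sources used here, so reads of the pair cannot be told apart there.

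Within the JUN family, JUND made up 72.5%, 69.1% and 69.2% of the summed CPM per kb in replicates 1, 2 and 3. JUN made up 16.4%, 24% and 20.4%, and JUNB 11.1%, 6.89% and 10.4%. The order JUND, JUN, JUNB held in every library. JUND exceeded JUN by 4.42, 2.88 and 3.40 times per kb, with exact (Clopper-Pearson) 95% binomial intervals of 4.12 to 4.73, 2.77 to 2.98 and 3.19 to 3.62, and JUNB by 6.50, 10.03 and 6.65 times. The mean log2 ratio of JUND to JUN was 1.81 per kb and 0.884 on counts not divided by length. JUNB was 0.679, 0.287 and 0.510 times JUN. The intervals cover counting error only, and those of JUND to JUN did not overlap between libraries.

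FOS family RNA was scarce. Its 4 genes together reached 0.876, 1.24 and 0.719 CPM per kb, against 81.8, 133 and 89.7 for the JUN family, so that JUN family RNA exceeded it by 93.4, 107 and 125 times. FOSL1 and FOS held most of this small sum, and which of them led differed between libraries.

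FOS, the prototype immediate early gene, had 21, 81 and 9 counts, or 0.845, 1.89 and 0.376 CPM. Replicate 3 kept it just outside the detection rule, while EGR1 with 13 and FOSB with 14 counts in that library were just inside. Replicate 2 stood 5.05 times above replicate 3, the widest span of the 10 genes. With every gene kept that had a count in any library, the log2 distance of FOS from the median gene was -3.36 ± 0.36 (SE; limma, adjusted p = 3.45e-06) and differed between libraries by more than counting error (chi-square test of homogeneity, adjusted p = 3.26e-07; 47.4% of 22026 genes did so). FOS lies on chromosome 14 from 75278774 to 75282230.

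FOSL1, which encodes FRA-1, a FOS protein with no strong activation domain that marks many mesenchymal and invasive cancers, had 22, 40 and 22 counts. At 0.469, 0.496 and 0.486 CPM per kb it hardly differed between libraries. Its log2 distance from the median gene was -3.42 ± 0.196 (limma, adjusted p = 4.99e-07), and it lies on chromosome 11 from 65892049 to 65900573. FOSB had 17, 32 and 14 counts, 0.121 ± 0.0149 CPM per kb (n = 3), and a log2 distance of -5.39 ± 0.214 from the median gene (limma, adjusted p = 6.55e-08), with only 1.69% of detected genes lower. FOSB is on chromosome 19 from 45467995 to 45475179.

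FOSL2, which encodes FRA-2, was the lowest member, with 4, 7 and 2 counts in libraries of 23868201 to 42610181. A count of 0 in these libraries would allow up to 0.121, 0.0702 and 0.125 CPM (3 counts), and FOSL2 stood at 0.161, 0.164 and 0.0835 CPM. It lies on chromosome 2 from 28392448 to 28417312. FOSB exceeded FOSL2 in every library, by 5.48, 5.89 and 9.02 times per kb, with wide intervals (1.79 to 22.4, 2.55 to 15.8 and 2.07 to 81.8).

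**Figure D2:**
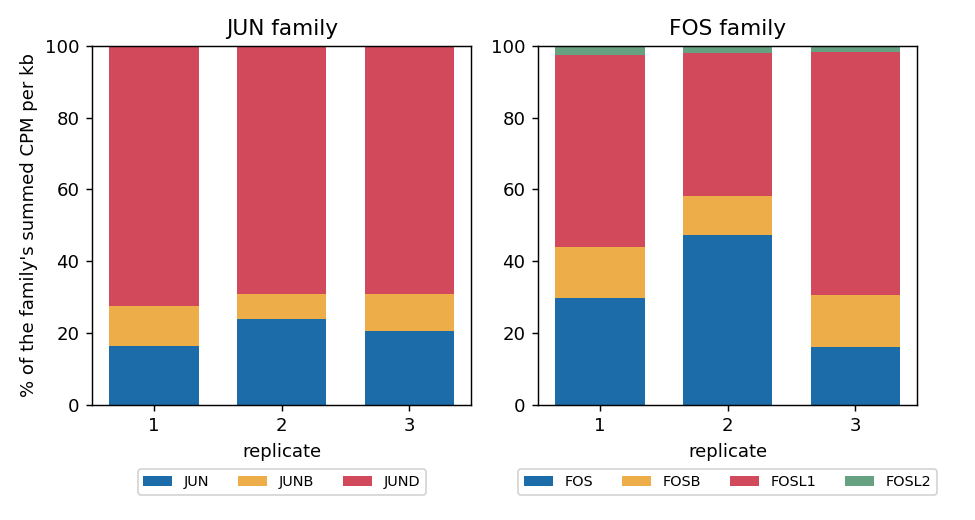
Share (%) of each gene in the summed CPM per kb of its family, for replicates 1, 2 and 3; the left panel shows the JUN family and the right panel the FOS family. JUND holds 69.1% to 72.5% of the JUN family in all 3 libraries, whereas FOS ranges from 16.1% to 47.2% of the FOS family and FOSL1 from 40.0% to 67.6%.

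IER2 lay above the median gene and EGR1 below it, although both belong to the immediate early response. IER2 had 1025, 2245 and 966 counts, at 13.4, 17.1 and 13.1 CPM per kb (14.6 ± 2.21, n = 3). It lay 1.38 ± 0.101 above the median gene on the log2 scale (limma, adjusted p = 2.21e-06). IER2 lies on chromosome 19 from 13150415 to 13154908, and 30.8% of its exon bases are shared with AC011446.2, a gene annotated on the other strand, so part of its count may belong to that gene.

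EGR1, the zinc finger factor whose promoter carries the CArG boxes shown above, had 30, 30 and 13 counts. Scaled to library size this was 1.21, 0.702 and 0.542 CPM, highest in replicate 1. The log2 distance from the median gene was -4.37 ± 0.258 (limma, adjusted p = 5.9e-07), and the gene lies on chromosome 5 from 138465490 to 138469315. The other EGR genes, named after their values were seen, were also scarce: EGR2 had 22, 7 and 5 counts, EGR4 0, 2 and 0, and EGR3 none, which allows up to 0.121, 0.0702 and 0.125 CPM. NAB2, a corepressor that binds EGR1 and is induced by it, stood far higher than EGR1, whose level was 0.0811, 0.0560 and 0.0420 times that of NAB2 per kb.

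MAFF had 167, 251 and 108 counts, or 1.197, 1.05 and 0.803 CPM per kb (1.01 ± 0.199, n = 3), falling between JUNB and FOSL1. Its log2 distance from the median gene was -2.45 ± 0.157 (limma, adjusted p = 9.79e-07), and it lies on chromosome 22 from 38200767 to 38216511. Both other small MAF genes were higher: MAFG exceeded MAFF by 7.46, 12.3 and 15.8 times per kb and MAFK by 1.87, 1.72 and 2.52 times. Of the MAFK exon bases, 18.1% are shared with TMEM184A on the other strand, so part of the MAFK count may belong to that gene. Small MAF proteins bind DNA as partners of NFE2L and BACH proteins, and MAFG (11.5 ± 2.23 CPM per kb) was the main member of the trio in every library.

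Ordered by mean level per kb, the members ran JUND, JUN, IER2, JUNB, MAFF, FOSL1, FOS, EGR1, FOSB and FOSL2. JUN and IER2 were level in replicate 1 only, with JUN to IER2 ratios of 0.999, 1.87 and 1.39 (exact sign-flip permutation test, two-sided, p = 0.50). The 95% binomial interval included 1 in replicate 1 (0.918 to 1.087) but not in replicates 2 (1.774 to 1.963) and 3 (1.285 to 1.511). Their mean log2 ratio was 0.459, and 0.664 on undivided counts (p = 0.25, exact sign-flip test), where JUN was higher in every library. FOSL1 to FOS ratios were 1.80, 0.847 and 4.195 (p = 0.50 in the same exact test), and FOS to EGR1 ratios 0.678, 2.62 and 0.671 (p = 1). FOS thus kept no fixed order with either gene. FOSL1 (0.469, 0.496 and 0.486 CPM per kb) stood above EGR1 (0.385, 0.224 and 0.173) in each library, a pair that was not tested. In undivided counts FOSL1 was the lower of this pair in replicate 1 (22 against 30). Per kb, the other 6 neighbours kept their order in all 3 libraries, for which this exact test gives 0.25, the smallest p that 3 libraries allow. EGR1 exceeded FOSB by 3.12, 1.66 and 1.64 times, but the 95% binomial intervals of replicates 2 (0.974 to 2.82) and 3 (0.711 to 3.77) include 1. The EGR1 and FOSB order also rests on length: undivided counts were lower for EGR1 in replicates 2 and 3, and the mean log2 ratio fell from 1.03 to 0.206 (p = 1, exact sign-flip test). FOS counts were 0.0195, 0.0184 and 0.00634 times those of JUN per kb, and IER2 exceeded FOS by 51.5, 29.2 and 113 times. The FOS to FOSB ratio was 2.12, 4.34 and 1.10 per kb, with an interval in replicate 3 (0.421 to 2.73) that includes 1; its mean log2 value was 1.11, and 0.336 on undivided counts (p = 0.75, exact sign-flip test). FOSL2 was 0.0862, 0.0391 and 0.1005 times FOS and 0.0479, 0.0461 and 0.0240 times FOSL1.

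The libraries differed in JUN, JUND and IER2, which were all highest in replicate 2. In CPM, JUN stood at 47.5, 113 and 64.7, JUND at 110, 171 and 116, and IER2 at 41.3, 52.5 and 40.3. Replicate 2 exceeded the mean of the other 2 libraries by 2.01 times for JUN, 1.51 times for JUND and 1.29 times for IER2, and by 3.11 times for FOS at its low counts. In the chi-square test of homogeneity, 5 of the 8 detected members differed between libraries by more than counting error: JUN (adjusted p = 7.1e-203), JUND (1.86e-118), IER2 (9.6e-15), MAFF (0.00839) and EGR1 (0.0326). The test called 68.7% of the 14612 detected genes, so this count is near the background. Replicate 2 was also the deepest library, and the part of depth in these differences was not tested.

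Without replicate 2, JUN still differed between the remaining libraries (adjusted p = 2.41e-14), whereas JUND (0.169) and IER2 (0.726) were no longer called; the test then called 39% of genes. MAFF and EGR1 followed another order, highest in replicate 1 and lowest in replicate 3: MAFF stood at 6.72, 5.87 and 4.51 CPM. The EGR1 call rests on few counts and was lost without replicate 1 (adjusted p = 0.538) or replicate 3 (0.063), and that of MAFF without replicate 3 (0.26). JUNB (adjusted p = 0.944), FOSL1 (0.982) and FOSB (0.771) were not distinguished from counting error; the SD of log2 CPM of JUNB was 0.018 and that of FOSL1 0.038. The median SD of log2 CPM was 0.251 over the 8 detected members and 0.169 over all detected genes, and JUN (0.633) and EGR1 (0.545) exceeded the 90th percentile of all detected genes (0.445).

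**Figure D3:**
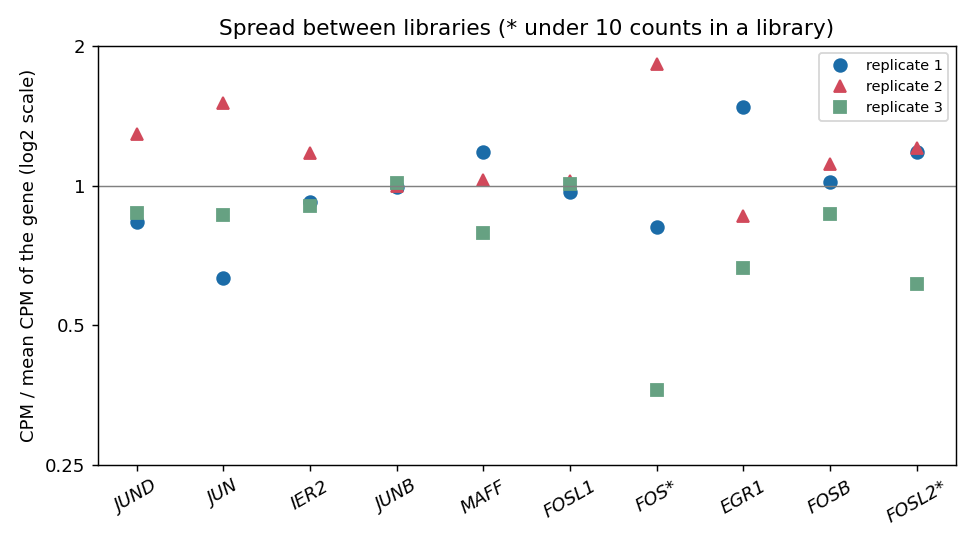
CPM of each gene in each library divided by the gene's mean CPM (log2 scale), in the order of level; an asterisk marks the 2 genes with under 10 counts in a library. Replicate 2 is the highest point for JUND, JUN, IER2 and FOS, and by smaller margins for FOSL1, FOSB and FOSL2. Replicate 1 is the highest point for MAFF and EGR1, and the 3 points of JUNB and FOSL1 nearly coincide.

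The pattern of JUN over the libraries was set beside that of 12789 detected genes with a mean of at least 50 counts. The 3 nearest, by root mean square difference of centred log2 CPM over the 3 libraries, were RP4-736L20.4 (difference 0.0147), GIPR (0.0173) and CCDC62 (0.0191). GIPR, a hormone receptor gene, stood at 27.1, 62.6 and 36.0 CPM. With 3 libraries many genes share a shape, and this likeness is a description only.

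Other immediate early genes also tended to be highest in replicate 2. Of 30 genes in that list, 22 were detected and 16 of these had their highest CPM in replicate 2, compared with 36.4% of all detected genes. Replicate 2 exceeded the mean of the others by over 0.5 in log2 CPM for 7 of the 22 (31.8%), for 2 of the 8 detected members (25%, JUN and JUND) and for 7.98% of all detected genes. RHOB, a small GTPase gene known for its rapid induction by DNA damage, stood at 45.6, 149 and 57.6 CPM. ZFP36, whose product destabilises AU-rich early RNAs, stood at 3.26, 6.86 and 2.54 CPM, and KLF6 at 22.9, 50.5 and 31.8 CPM; these 2 were named after their values were seen.

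**Figure D4:**
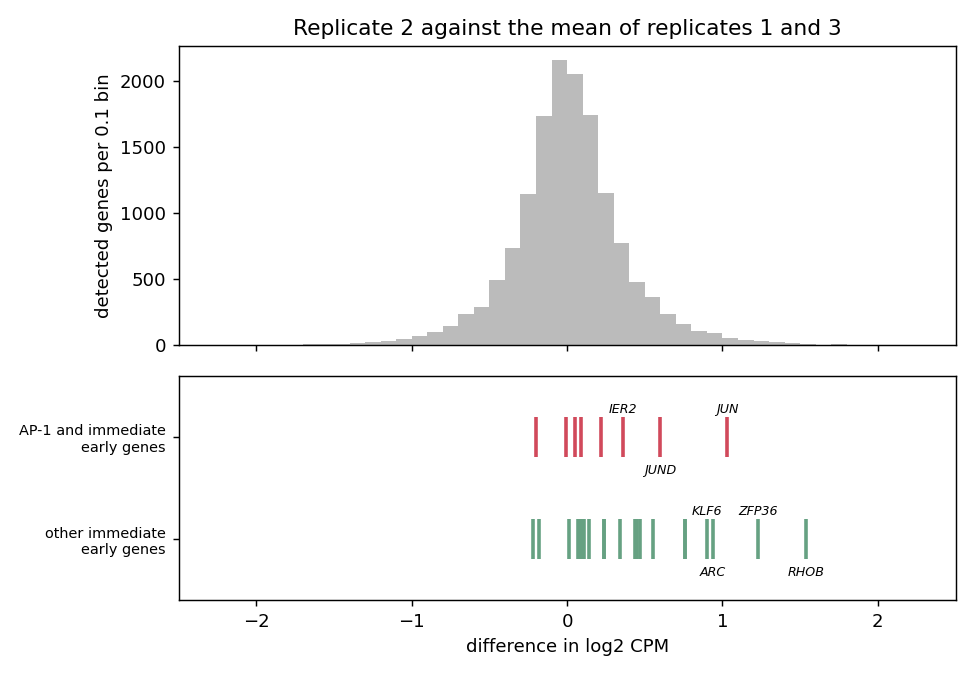
Difference in log2 CPM between replicate 2 and the mean of replicates 1 and 3: the upper panel is a histogram of all 14612 detected genes, and ticks in the lower panel are the 8 detected members and 22 detected other immediate early genes. JUN lies at 1.03, JUND at 0.60 and IER2 at 0.36, and RHOB, at 1.54, is farthest to the right among the ticks, although some genes of the histogram lie beyond it.

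In level, 8 of the 22 detected other immediate early genes were called above the median gene and 11 were called below (limma, CPM per kb), and the median distance was -0.38 on the log2 scale. Across all genes tested, 45.3% were called above and 45.1% below. On CPM without division by length 5 of the 22 lay above. RHOB (35.5 ± 23.9 CPM per kb), the antiproliferative p53 target BTG2 (21.4 ± 3.26) and the RNA-binding protein gene ZFP36L2 (16.9 ± 0.901) were highest. KLF4, a zinc finger factor of epithelial and stem cells, was the lowest detected at 0.171 ± 0.0347. By the chi-square test, 15 of the 22 differed between libraries, near the 68.7% of all detected genes, and 6 did without replicate 2, when 39% of all genes did.

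Among 8 other bZIP genes whose products can pair with FOS or JUN proteins, 7 were detected, 3 above and 3 below the median gene. Over all genes, 14612 of 27574 were detected, and 45.3% of those tested lay above and 45.1% below, so the split is near the background. ATF4, the effector of the integrated stress response, led at 226 ± 34.7 CPM per kb, followed by the JUN partner ATF2 (11.9 ± 2.22) and the stress-induced ATF3 (10.05 ± 3.12). ATF3 was also highest in replicate 2, at 31.0, 54.9 and 35.9 CPM. JDP2, a repressor that pairs with JUN, was the lowest detected at 1.59 ± 1.03 CPM per kb, and stood at 4.83, 17.2 and 7.76 CPM. BATF, the partner of JUN in lymphocytes, named after its values were seen, had no count in any library, which allows up to 0.121, 0.0702 and 0.125 CPM. ATF2 went the other way, at 66.9, 56.5 and 81.9 CPM.

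Of 12 other MAF, CNC and BACH genes, 9 were detected, 6 above and 3 below the median gene. Over all 27574 genes 14612 were detected, and 45.3% of those tested lay above and 45.1% below. NRL, a MAF family gene known as the rod photoreceptor factor, was highest at 66.45 ± 16.6 CPM per kb, with 253, 217 and 151 CPM in the 3 libraries; 9.41% of its exon bases are shared with DCAF11 on the other strand. NFE2L1 (49.4 ± 8.19 CPM per kb) and NFE2L3 (17.8 ± 1.67), CNC partners of the small MAF proteins, followed, and the blood-cell factor NFE2 was the lowest detected (0.286 ± 0.0772). MAF had no count and MAFA had 9, 8 and 4 counts; both were named after their values were seen.

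RNA of the machinery that switches immediate early genes on was present: 25 of 26 such genes were detected, 15 above and 5 below the median gene. For comparison, 14612 of all 27574 genes were detected, and of those tested 45.3% lay above and 45.1% below. The ERK kinase gene MAP2K2 (33.1 ± 2.23 CPM per kb), the JNK kinase gene MAP2K7 (27.7 ± 3.19) and SRF, which encodes serum response factor (25.6 ± 1.78), were highest, and the neuronal JNK gene MAPK10 was lowest (0.376 ± 0.0809). RPS6KA2, with 2, 0 and 0 counts, was the 1 gene not detected, and was named after its values were seen. RNA levels say nothing of whether these kinases were active. Of 6 genes for turnover enzymes and corepressors of FOS, JUN and EGR proteins, all were detected, 3 above and 3 below the median gene. This split is close to the 45.3% above and 45.1% below of all genes tested. The ubiquitin ligase genes COP1 (20.1 ± 0.920 CPM per kb) and ITCH (19.7 ± 0.989), both known to act on JUN proteins, and the EGR corepressor gene NAB1 (11.3 ± 0.218) led, NAB2 stood at 4.29 ± 0.404, and FBXW7, another JUN ligase gene, was lowest (2.65 ± 0.0842).

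Of 18 textbook AP-1 target genes, 7 were detected, 2 above the median gene and 4 below, and 11 were not. Of all 27574 genes 14612 were detected, and of those tested 45.3% lay above and 45.1% below. The gelatinase gene MMP9 (11.1 ± 2.67 CPM per kb), of whose exon bases 18.4% are shared with an antisense gene, and TGFB1 (8.55 ± 1.57) lay above. TIMP1, a metalloprotease inhibitor gene, stood at 6.26 ± 0.272 CPM per kb, near the median gene (limma, adjusted p = 0.166). CD44 was the lowest detected per kb (0.129 ± 0.0179). The chemokine gene CXCL8, named after its values were seen, had no count, which allows up to 0.121, 0.0702 and 0.125 CPM. On CPM without division by length none of the 18 lay above the median gene.

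**Figure D5:**
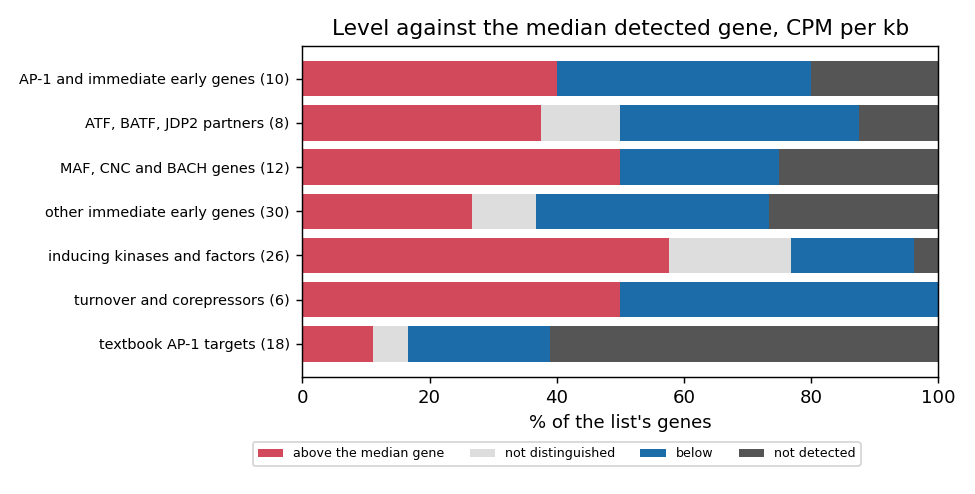
Share (%) of the genes of the 7 lists shown, the marker lists left out, that lay above the median detected gene, were not distinguished from it, lay below it (limma, CPM per kb) or were not detected; list sizes are in brackets. Among these lists, the inducing kinases and factors have the longest part above the median gene (15 of 26) and the textbook AP-1 targets the longest part not detected (11 of 18).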

How the data were processed

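Total RNA of H82R cells was extracted with TRIzol, per the labels' protocols. The authors deposited raw read counts per gene symbol, 1 column per library, matched to samples by title. The submitters' processing notes name STAR 2.6.1b and hg38 without saying how they were used; counter, annotation and strand setting were not given in the sources used here. Of 27587 names, 13 had become dates (0.0665% to 0.0736% of counts) and were dropped. Exon lengths came from GENCODE 29 (GRCh38, the assembly hg38 names); 19590 names matched directly and 480 by an older symbol, and 92.5% of detected genes have a length. Promoter windows and their build are RefSeq's.

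CPM were computed with edgeR 4.0.16 TMM sizes. The level test was limma-trend (limma 3.58.1, R 4.3.3): two-sided, on log2 CPM per kb (prior count 2) minus the library's median over detected genes. Homogeneity used a chi-square test against effective sizes. P-values were Benjamini-Hochberg adjusted over all genes tested, with a threshold of 0.05. Both tests were tested on simulated data. The labels form 1 group, so no contrast could be tested.

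The members and lists were chosen with earlier results of these data known, and some list genes entered the counts but are not reported here. Named genes are all members, the 3 highest and the lowest detected gene of each context list, members of 12 fixed pairs, and the 3 genes nearest the most variable detected member; other names are marked where they appear. Alternatives were other filters, scalings (DESeq2 1.42.0 size factors, totals), lengths, priors and tools, and leaving out each library.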

Additional observations from a re-analysis of the deposited data

How the results depend on the processing

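For the 10 members, the counts above and below the median gene stayed at 4 and 4 to 5 when any 1 library was left out, and limma-voom, edgeR's quasi-likelihood test of the distance, a prior count of 0.5, DESeq2 size factors, unscaled totals, protein-coding genes only and the longest transcript as length kept each count within 1.5 times. With at least 1 CPM in every library only 1 member lay below, since fewer were tested. The number that differed between libraries, 5, was 3 to 4 when 1 library was left out (3 without replicate 2). JUNB lay at -0.581 instead of 0.733 on CPM not divided by length. The mean log2 FOS to EGR1 ratio, 0.084, ranged from -0.568 (without replicate 2) to 0.414 when 1 library was left out. Length choices moved several ratios without changing the sign of the mean. With no division by length, mean log2 ratios went from 1.81 to 0.884 (JUND to JUN), 0.651 to 1.406 (IER2 to JUNB), 3.199 to 1.574 (JUNB to MAFF), 1.05 to 2.623 (MAFF to FOSL1), 1.03 to 0.206 (EGR1 to FOSB), 1.114 to 0.336 (FOS to FOSB), 0.892 to 0.113 (FOSL1 to FOS), -1.11 to -2.07 (JUNB to JUN), -3.842 to -2.698 (FOSL2 to FOS) and -4.734 to -2.811 (FOSL2 to FOSL1). With the longest transcript as length, JUNB to MAFF became 2.425, MAFF to FOSL1 1.647, MAFG to MAFF 2.78 (from 3.503), FOS to JUN -5.665 (from -6.251) and FOS to EGR1 0.669. That length also gave 0.636 for MAFK to MAFF (from 1.005), 0.473 for EGR1 to FOSB and 3.192 for FOSB to FOSL2 (from 2.729). MAFK to MAFF was 0.672 with no division by length.

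Keeping every gene with a count in any library, which lowers the median gene, moved these counts: bZIP partners above from 3 to 5 and below from 3 to 1; MAF, CNC and BACH genes below from 3 to 5; other immediate early genes above from 8 to 13; turnover genes above from 3 to 5 and below from 3 to 0; targets below from 4 to 13. With no division by length, other immediate early genes above went from 8 to 5 (also 5 with the longest transcript), inducing genes below from 5 to 2 (8 with at least 1 CPM in every library), turnover genes above from 3 to 5 and below from 3 to 1, and targets above from 2 to 0. Leaving out 1 library gave 6 to 13 varying other immediate early genes (main 15; 6 without replicate 2), 1 to 3 turnover genes below and 1 to 3 varying (main 3 each; 1 each without replicate 3), and 1 to 2 varying targets (main 2; 1 without replicate 3). Apart from what was left out or how genes were scaled, the cause was not tested. FOS, FOSB, FOSL1, FOSL2 and EGR1 rest on 2 to 81 counts per library, which limits their ratios. No paired analysis was possible because the labels form 1 group.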
